A study of Homo sapiens with 4 samples.

Results

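The genes described here were 10 members of the Wnt pathway out of 60617 gene IDs measured: the ligands WNT5A, WNT5B, WNT7A, WNT7B and WNT10A, the receptors FZD2 and FZD6, the co-receptor LRP6, and the nuclear factors PYGO1 and PYGO2. They were found in the deposited table by Ensembl ID. They were chosen around the high level of WNT7A in 5637 and the opposite differences of PYGO1 in 5637 and T24 cells, so their levels and differences are given as a description, with no test. T24 and 5637 are established human bladder carcinoma lines. There were 4 libraries of messenger RNA: 5637 given 70 µM protodioscin for 6 h, untreated 5637, T24 given 60 µM protodioscin for 6 h, and untreated T24. Protodioscin is a steroidal saponin from plants, both lines grew in RPMI with 10% fetal bovine serum, and the labels name no vehicle for the untreated cells. The doses are those of the sample titles, while the treatment protocol gives the same figures in millimolar. Each group was 1 library, so no value carries a replicate error.

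Wnt ligands are secreted, lipid-modified glycoproteins that bind Frizzled receptors together with the co-receptor LRP5 or LRP6. Binding stops the destruction complex from degrading beta-catenin, which then enters the nucleus, joins TCF/LEF factors and recruits BCL9 and Pygopus, whose PHD finger reads methylated histone tails. Some ligands, WNT5A and WNT5B among them, act mainly through beta-catenin-independent routes that use ROR receptors and planar polarity proteins. In the mouse bladder, stromal Wnt ligands act on the basal urothelium during its repair.

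The promoter windows of WNT7A, PYGO1 and PYGO2 are shown because the members were chosen around WNT7A and PYGO1, and PYGO2 is the paralog of PYGO1. They are RefSeq windows on GRCh38.p14, from 250 bases before to 50 bases after an annotated start, on the minus strand and written 5′ to 3′. Capitals mark every match to 5 searched motifs on either strand: the TCF/LEF core CTTTGA, the GC box GGGCGG, the AP-1 motif TGANTCA, the E-box CACGTG and the TATA motif TATAAA.
WNT7A, chr3:13880022-13880321: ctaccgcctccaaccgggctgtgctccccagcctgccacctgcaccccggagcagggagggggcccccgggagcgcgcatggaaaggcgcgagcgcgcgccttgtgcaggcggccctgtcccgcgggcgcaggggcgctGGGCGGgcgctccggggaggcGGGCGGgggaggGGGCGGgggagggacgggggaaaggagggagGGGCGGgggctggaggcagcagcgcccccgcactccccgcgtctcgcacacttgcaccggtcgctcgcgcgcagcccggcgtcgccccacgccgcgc
PYGO1, upstream start, chr15:55588922-55589221: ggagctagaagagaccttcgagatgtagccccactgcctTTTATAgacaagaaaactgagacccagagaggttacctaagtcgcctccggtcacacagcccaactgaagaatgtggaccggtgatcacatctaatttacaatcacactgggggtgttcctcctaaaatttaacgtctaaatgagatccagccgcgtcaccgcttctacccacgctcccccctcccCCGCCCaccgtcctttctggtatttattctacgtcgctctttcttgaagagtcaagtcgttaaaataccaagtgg
PYGO1, downstream start, chr15:55588296-55588595: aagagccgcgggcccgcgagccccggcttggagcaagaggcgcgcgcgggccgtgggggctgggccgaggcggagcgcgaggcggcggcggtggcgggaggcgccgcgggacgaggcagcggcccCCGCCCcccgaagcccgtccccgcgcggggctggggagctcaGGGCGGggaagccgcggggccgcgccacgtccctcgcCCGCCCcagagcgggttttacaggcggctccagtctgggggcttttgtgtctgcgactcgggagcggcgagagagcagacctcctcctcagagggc
PYGO2, chr1:154961733-154962032: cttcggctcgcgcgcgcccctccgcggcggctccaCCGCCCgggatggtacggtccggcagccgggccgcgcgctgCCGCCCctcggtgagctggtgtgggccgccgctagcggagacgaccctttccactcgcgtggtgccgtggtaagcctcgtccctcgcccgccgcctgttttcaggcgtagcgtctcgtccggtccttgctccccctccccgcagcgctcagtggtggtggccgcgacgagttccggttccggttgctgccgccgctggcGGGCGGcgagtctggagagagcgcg

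The WNT7A window held 4 GC boxes, with 80.3% G and C and 40 CpG dinucleotides, against medians of 58.7% and 14 over all 35116 promoter windows. The upstream PYGO1 window differed from the downstream one, with 49.7% G and C, 14 CpG, 1 GC box and 1 TATA motif. The downstream PYGO1 window had 78.7% G and C, 43 CpG and 3 GC boxes, and the PYGO2 window had 74.7%, 47 CpG and 3 GC boxes. None of these 4 windows held the TCF/LEF core, the AP-1 motif or the E-box, which occurred in 12.9%, 7.71% and 7.26% of all windows. The GC box occurred in 45.0% and the TATA motif in 11.5% of all windows. A match is a string of letters and not a measured binding site, and 6 of the 10 members had a window in the table.

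Values are FPKM, fragment counts divided by transcript length and library size, so that genes of different length can be compared. The FPKM of 12405 and 12331 genes reached 1 in treated and untreated 5637, and that of 11941 and 11960 genes in treated and untreated T24. The commonest low product of FPKM and transcript length, over single-transcript genes without overlaps, was taken as 1 read. It gave a sequencing depth, relative to untreated T24, of 1.19 in treated 5637, 1.43 in untreated 5637 and 1.28 in treated T24. Both lines held the epithelial keratins, with KRT8 at 613 and 692 FPKM in treated and untreated 5637 and at 505 and 555 FPKM in treated and untreated T24. The basal urothelial genes KRT5, KRT6A and TP63 and the epithelial cadherin CDH1 were high in 5637 and at 0.0681 FPKM or below in both T24 libraries. Of 8 epithelial and basal markers, 8 reached 1 FPKM in both 5637 libraries and 4 in both T24 libraries, with summed levels of 3024 and 3504 FPKM in treated and untreated 5637 and of 1517 and 1887 FPKM in treated and untreated T24. The 3 mesenchymal markers summed to 294 and 337 FPKM in treated and untreated 5637 and to 115 and 125 FPKM in treated and untreated T24, a sum carried by VIM. The other two were lower in 5637: CDH2 was at 26.7 and 33.4 FPKM in treated and untreated 5637 and at 45.6 and 48.5 FPKM in treated and untreated T24, and ZEB1 was below 1 FPKM in 5637 and at 8.38 and 8.46 FPKM in treated and untreated T24. The 6 markers of blood, endothelial and liver cells did not exceed 0.381 FPKM in any library.

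WNT7A was the most abundant ligand of 5637 and was close to absent from T24. WNT7A, a ligand of epithelia (ENSG00000154764, GRCh38 chromosome 3, 13816258 to 13880121), was at 122 FPKM in treated 5637 and 148 FPKM in untreated 5637. In T24 it was at 0.0123 FPKM in treated and 0.0633 FPKM in untreated cells, worth about 3 and 10 reads if all came from its longest annotated transcript of 4041 bases. Both 5637 libraries were thus above both T24 libraries, and the difference of 5637 minus T24 was 6.93 between treated and 7.13 between untreated libraries on the log2(FPKM + 1) scale. Within 5637, the treated library was lower by a factor of 0.827 in FPKM, a log2 difference of -0.27. The basal markers differed between the lines in the same direction, and their part in the WNT7A difference was not tested. In RNA from whole cultures, fewer cells that express a gene and less of its RNA per cell cannot be told apart.

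WNT7B, the closest relative of WNT7A, was expressed in both lines. WNT7B (ENSG00000188064, chromosome 22) was at 27.1 FPKM in treated and 25.6 FPKM in untreated 5637, and at 8.78 FPKM in treated and 11.1 FPKM in untreated T24. The level in 5637 was 3.09 times that in T24 between treated libraries and 2.30 times between untreated ones. Treated minus untreated was 0.08 in 5637 and -0.31 in T24 on the log2 scale, so the small difference in 5637 and the larger one in T24 had opposite signs.

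The paralogs WNT5A and WNT5B had opposite preferences for the lines. WNT5A (ENSG00000114251, chromosome 3), a ligand of ROR receptors, was at 14.5 FPKM in treated and 18.8 FPKM in untreated 5637, against 1.39 FPKM in treated and 1.75 FPKM in untreated T24. WNT5B (ENSG00000111186, chromosome 12) was at 2.72 FPKM in treated and 2.53 FPKM in untreated 5637, against 6.65 FPKM in treated and 7.35 FPKM in untreated T24. For both genes the libraries of one line did not overlap those of the other. With protodioscin, WNT5A was lower in both lines, by log2 differences of -0.35 in 5637 and -0.20 in T24. WNT5B differed by 0.08 in 5637 and -0.13 in T24.

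WNT10A, a ligand needed for tooth and hair development, was low and listed above 0 in 5637 alone. WNT10A (ENSG00000135925, chromosome 2) was at 1.05 FPKM in treated and 2.38 FPKM in untreated 5637, about 129 and 354 reads on its longest transcript of 2547 bases. It was listed at 0 in both T24 libraries. The treated 5637 library had 0.440 times the FPKM of the untreated one, and the log2(FPKM + 1) difference was -0.72. Of 12635 genes compared in 5637, 49 had a lower value of this difference.

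**Figure D1:**
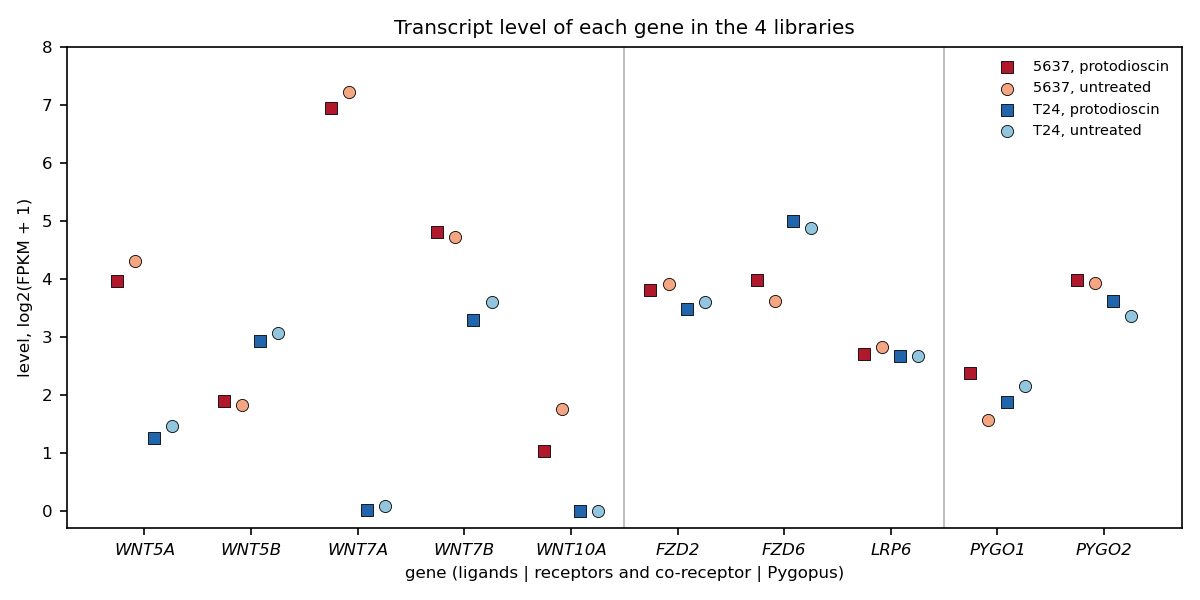
Level of each of the 10 genes as log2(FPKM + 1), with 1 point for each library: squares are protodioscin and circles untreated, red is 5637 and blue T24. WNT7A stands at 122 and 148 FPKM in 5637 and near 0 in T24, FZD6 and WNT5B are higher in T24, and the symbols of LRP6 lie close together.

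Among receptors, FZD6 was higher in T24 and FZD2 and LRP6 were similar in both lines. FZD6, a Frizzled known for hair patterning in mice (ENSG00000164930, chromosome 8), was at 14.9 FPKM in treated and 11.2 FPKM in untreated 5637, against 31.0 FPKM in treated and 28.6 FPKM in untreated T24. It was higher with treatment in both lines, by 0.38 in 5637 and 0.11 in T24 on the log2 scale. Its antisense neighbour BAALC-AS1, whose reads cannot be told apart from those of FZD6 without strand, was at 1.05 and 0.579 FPKM in treated and untreated 5637 and at 0.816 and 0.780 FPKM in treated and untreated T24.

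FZD2 (ENSG00000180340, chromosome 17), a receptor used by WNT5A, was at 13.0 FPKM in treated and 14.1 FPKM in untreated 5637, and at 10.2 FPKM in treated and 11.1 FPKM in untreated T24. Its treated minus untreated differences were -0.11 in 5637 and -0.11 in T24, the most alike of the 10 genes. LRP6 (ENSG00000070018, chromosome 12), the co-receptor of the beta-catenin route, was at 5.54 FPKM in treated and 6.05 FPKM in untreated 5637, and at 5.34 FPKM in both treated and untreated T24. Its 4 values lay closest together of all members, with differences of -0.11 in 5637 and 0.00077 in T24, where the sign turned (-0.017) with median-ratio scaling.

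PYGO1 was higher with protodioscin in 5637 and lower in T24. PYGO1 (ENSG00000171016, chromosome 15, 55538890 to 55588947) was at 4.18 FPKM in treated and 1.96 FPKM in untreated 5637, about 1719 and 972 reads if all came from its longest transcript of 8488 bases. In T24 it was at 2.67 FPKM in treated and 3.46 FPKM in untreated cells, about 1182 and 1195 reads. The ranges of the lines overlap: treated 5637 had the highest of the 4 values and untreated 5637 the lowest. The FPKM ratio of treated over untreated was 2.13 in 5637 and 0.771 in T24, and the log2(FPKM + 1) differences were 0.81 and -0.28.

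Of the 12635 genes compared in 5637, 29 had a higher value than the PYGO1 difference, and of 12193 compared in T24, 829 had a lower one. The response in 5637 minus that in T24 was 1.09 for PYGO1. Of the 12893 genes that reached 1 FPKM in 2 or more libraries, 83 (0.644%) were past 1 in either direction by this measure and 49 (0.38%) in the positive one, and nothing is read from this for PYGO1, which was chosen for it. An antisense gene opposite PYGO1 (ENSG00000285805) was at 0.223 and 0.246 FPKM in treated and untreated 5637. In treated and untreated T24 it was at 0.0598 and 0.0658 FPKM. Without strand, its reads cannot be told apart from those of PYGO1, and their part in the PYGO1 difference was not tested.

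PYGO2, the more widely expressed Pygopus, was the main form in all 4 libraries. PYGO2 (ENSG00000163348, chromosome 1) was at 14.9 FPKM in treated and 14.2 FPKM in untreated 5637, and at 11.3 FPKM in treated and 9.30 FPKM in untreated T24. Its differences were 0.06 in 5637 and 0.26 in T24. PYGO1 therefore made up 22.0% of the summed FPKM of the pair in treated and 12.1% in untreated 5637, against 19.1% in treated and 27.1% in untreated T24. PYGO2 is annotated to share exon sequence on the same strand with SHC1, a gene at 24.3 and 25.3 FPKM in treated and untreated 5637 and at 68.3 and 68.9 FPKM in treated and untreated T24. How the reads of the shared sequence were divided between PYGO2 and SHC1 is not given in the sources used here. PYGO2 also has an antisense neighbour (ENSG00000271380), at 0.835 FPKM or below in every library.

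By the mean FPKM of both libraries of a line, the order in 5637 was WNT7A, WNT7B, WNT5A, PYGO2, FZD2, FZD6, LRP6, PYGO1, WNT5B and WNT10A. Of neighbours in that order, WNT5A and PYGO2, FZD2 and FZD6, and PYGO1 and WNT5B had overlapping ranges. Of genes farther apart in it, FZD6 overlapped PYGO2 and WNT5A, and PYGO1 overlapped WNT10A. In T24 the order was FZD6, FZD2, PYGO2, WNT7B, WNT5B, LRP6, PYGO1, WNT5A, WNT7A and WNT10A. There the ranges of FZD2, PYGO2 and WNT7B all overlapped. A receptor thus led in T24 and a ligand in 5637.

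WNT7A dominated the ligands of 5637, whereas WNT7B and WNT5B led in T24. The FPKM of all 19 Wnt ligands summed to 172 in treated and 201 in untreated 5637, against 18.7 in treated and 21.9 in untreated T24. WNT7A held 71.3% and 73.5% of that sum in treated and untreated 5637, and WNT7B another 15.8% and 12.7%. In T24, WNT7B held 47.1% in treated and 50.6% in untreated cells and WNT5B 35.6% and 33.5%. Frizzled receptors, 10 in number, summed to 44.7 and 39.8 FPKM in treated and untreated 5637 and to 63.9 and 61.5 FPKM in treated and untreated T24. FZD6 held 33.3% and 28.2% of this in treated and untreated 5637, and 48.5% and 46.5% in treated and untreated T24. FZD2 held 29.04% and 35.4% in treated and untreated 5637, and 16.0% and 18.0% in treated and untreated T24.

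**Figure D2:**
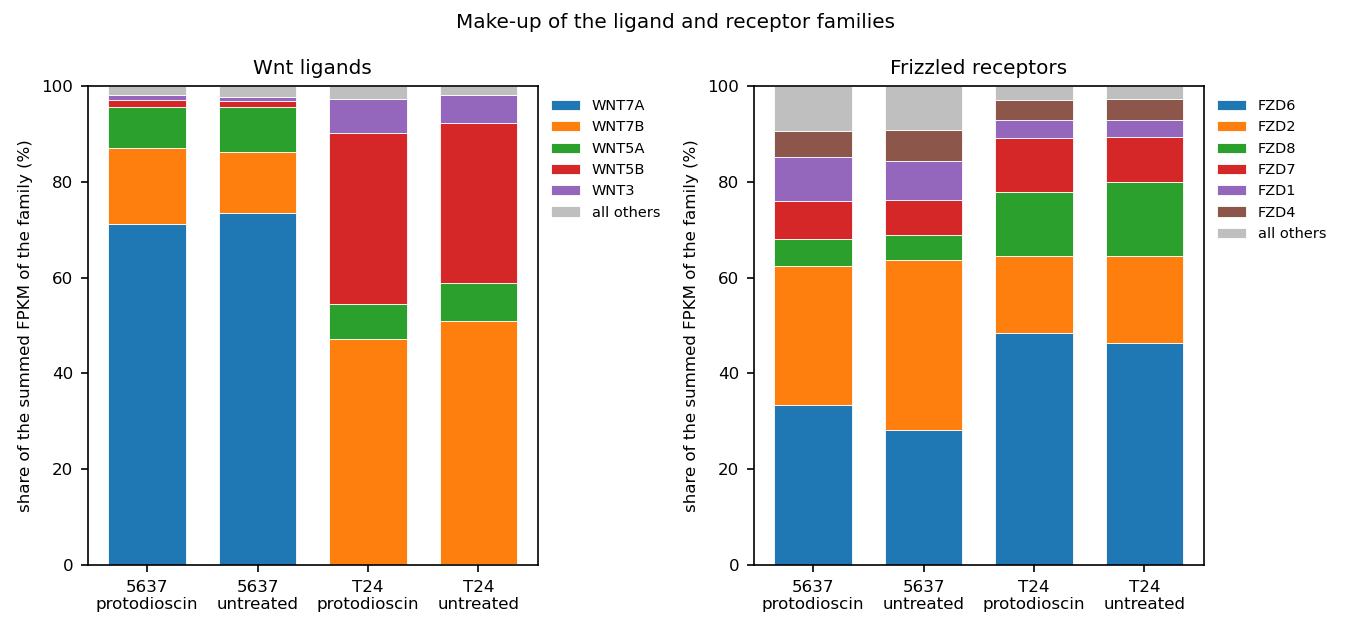
Share of the summed FPKM of 19 Wnt ligands (left) and 10 Frizzled receptors (right) held by each gene, in percent, with 1 bar for each library. WNT7A fills 71.3% and 73.5% of the ligand bars of treated and untreated 5637 and has no visible part in T24, whereas FZD6 and FZD2 lead the receptor bars of both lines.

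No member met the size rule for a difference between treated and untreated cells. The rule asked for a difference of 1 on the log2(FPKM + 1) scale, in genes that reached 1 FPKM in 1 or both libraries of the line. In 5637, 0 of 10 members met it, against 0.388% of 12635 genes compared, and in T24 0 of the 8 members compared, against 0.484% of 12193 genes. Higher and lower genes made up 0.174% and 0.214% in 5637 and 0.205% and 0.279% in T24. WNT10A and PYGO1 came nearest in 5637, and with a pseudocount of 0.1 their differences were -1.11 and 1.05. The median difference of the members was -0.02 in 5637, against 0.04 over all genes compared, and -0.12 in T24, against 0.02 over all genes. Of the 8 members compared in both lines, WNT5A and FZD2 were lower in both and FZD6 and PYGO2 higher in both. WNT7A was not compared in T24, where it rested on a few reads.

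The sign was opposite in the lines for 4 of the 8 members compared in both, WNT5B, WNT7B, LRP6 (not with median-ratio scaling) and PYGO1, against 40.8% of 12893 genes. That share is over a wider set than the 8 members, as 1476 of its genes reached 1 FPKM in 1 line only. With 8 members, and with PYGO1 chosen for its opposite signs, nothing is read from the count of 4. Between the lines, 4 members (WNT5A, WNT7A, WNT7B and WNT10A) were past 1 upward in 5637 and 2 (WNT5B and FZD6) past 1 downward, in the treated and in the untreated libraries alike. Among all genes, 11.1% were past 1 upward and 8.24% downward between treated libraries, and 11.2% and 8.7% between untreated ones. The members were chosen with these levels known, so nothing is read from this count.

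**Figure D3:**
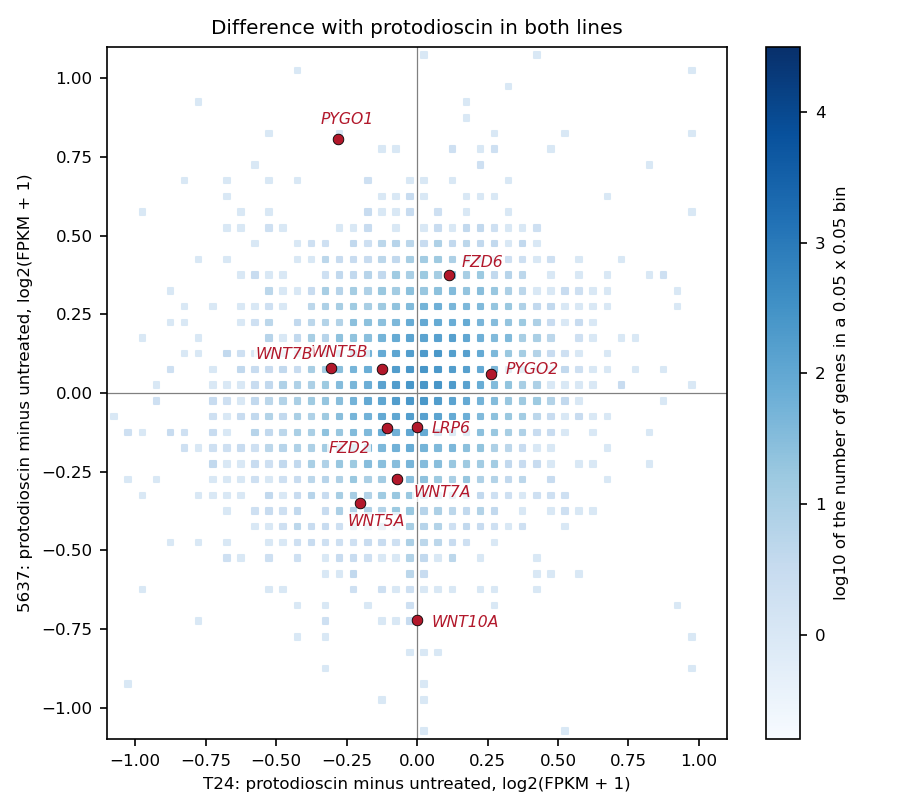
Treated minus untreated log2(FPKM + 1) in T24 (x axis) and 5637 (y axis): red points are the 10 genes, and shaded squares count the 12893 genes that reached 1 FPKM in 2 or more libraries, in bins of 0.05 by 0.05, leaving out genes beyond the ends of the axes. PYGO1 lies at -0.28 in T24 and 0.81 in 5637, WNT10A at 0 and -0.72, and the other members are within 0.38 of 0 on both axes.

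The wider pathway was described with 101 further genes in 9 lists by role, of which 62 reached 1 FPKM in at least 2 libraries. The line effect, 5637 minus T24, was estimated by limma over all 4 libraries with treatment as a term. It called 44 of the 62 at a Benjamini-Hochberg adjusted p below 0.05, 27 higher and 17 lower in 5637, a share of 71.0% against 68.9% of all 12893 genes tested (33.9% higher and 35.1% lower). The share is near the background. The median coefficient was 0.17, against -0.01 over all genes tested. Of the 62, 7 passed the filter through 5637 only and so had to come out higher there: WNT9A, FZD3, ROR2, RNF43, GPC4, SFRP1 and VANGL2. Their levels are given as a description. Of the other 55, 20 were higher and 17 lower, a share of 67.3%. Among the 11417 genes tested that reached 1 FPKM in both lines, the share was 65.2%. The median coefficient of the 55 was 0.09, against -0.04 over these 11417 genes, so the 0.17 above includes genes bound to be higher. The labels do not say whether the libraries came from independent cultures, and the spread behind these p-values is only that between treated and untreated libraries of a line after the shared treatment effect.

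Of 4 genes of ligand secretion and release, PORCN, the acyltransferase that lipidates Wnt ligands, and WLS, which carries them to the cell surface, were called higher in 5637. PORCN was at 26.4 and 27.4 FPKM in treated and untreated 5637 and at 9.15 and 8.11 FPKM in treated and untreated T24, with a coefficient of 1.54 (SE 0.084, limma adjusted p = 2.61e-05). WLS had a coefficient of 0.61 (SE 0.077). All 3 genes tested were called higher, GPC4 through the filter, against 33.9% of all genes tested. With 3 genes, nothing is read from this count. The glypican GPC4, a cell surface proteoglycan that passed the filter through 5637 only, was at 12.5 and 12.0 FPKM in treated and untreated 5637 and at 0.0116 and 0.00964 FPKM in treated and untreated T24. NOTUM, which inactivates Wnt ligands, was not tested, being listed at 0 in 5637 and at 0.0502 and 0.100 FPKM in treated and untreated T24.

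Both tested Dickkopf genes were lower in 5637. DKK1, which blocks LRP6, was at 19.9 and 22.8 FPKM in treated and untreated 5637, against 93.2 and 161 FPKM in treated and untreated T24, with a line coefficient of -2.47 (SE 0.14, limma adjusted p = 2.67e-05). DKK3, a divergent relative, had a coefficient of -4.77 (SE 0.064). SFRP1, a decoy that binds Wnt ligands and that passed the filter through 5637 only, was at 8.93 and 9.23 FPKM in treated and untreated 5637 and was listed at 0 in both T24 libraries. These were the 3 of 10 inhibitors that passed the filter. All 3 were called, SFRP1 through the filter, against 68.9% of all genes tested, of which 35.1% were called lower. With 3 genes, nothing is read from this count.

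The other ligands and receptors were low or moderate. Of 14 other ligands only WNT3 and WNT9A passed the filter. WNT9A, which did so through 5637 only, was at 1.34 and 1.26 FPKM in treated and untreated 5637 and at 0.166 and 0.133 FPKM in treated and untreated T24. Of 8 other Frizzled genes, 6 were tested. The share called was 66.7%, FZD3 through the filter, against 68.9% of all genes tested. FZD1 was higher in 5637, with a coefficient of 0.47, and FZD7 and FZD8 were lower, with -0.84 and -1.58. FZD3, which passed the filter through 5637 only, was at 1.83 and 1.53 FPKM in treated and untreated 5637 and at 0.145 and 0.118 FPKM in treated and untreated T24. FZD8 overlaps exons of another gene of its strand. ROR2, a receptor for WNT5A and another of these 7 genes, was at 4.10 and 3.80 FPKM in treated and untreated 5637 and was listed at 0 in both T24 libraries.

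Of 16 co-receptor and receptor turnover genes, 9 were tested, and 4 were higher, ROR2 and RNF43 through the filter, and 1 lower in 5637. The share called was 55.6%, against 68.9% of all genes tested. RNF43, a ligase that removes Frizzled receptors and that shares exons with another gene, was at 2.54 and 2.41 FPKM in treated and untreated 5637 and listed at 0 in T24. RYK, an atypical kinase receptor, was called higher (coefficient 0.76), and PTK7, a co-receptor of planar polarity, lower (-0.70). LRP5, the relative of LRP6, was at 31.3 and 32.3 FPKM in treated and untreated 5637 and at 30.9 and 27.2 FPKM in treated and untreated T24, and was not called (limma adjusted p = 0.187).

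**Figure D4:**
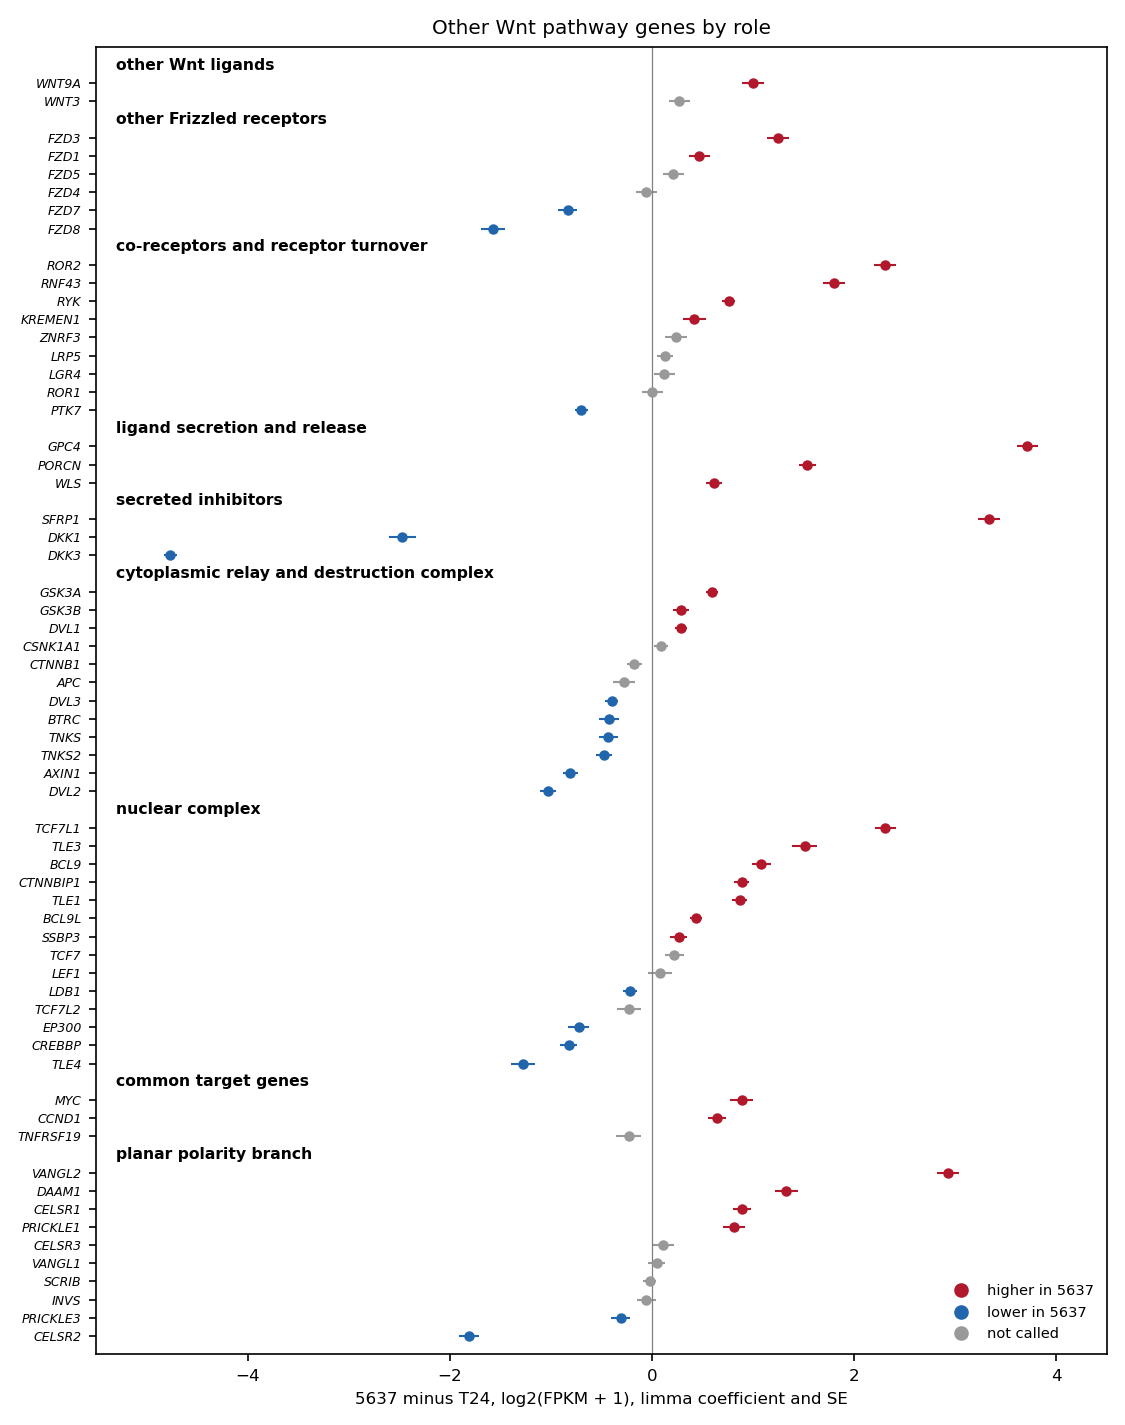
Line effect, 5637 minus T24, for the 62 tested genes of the wider pathway, as limma coefficients on the log2(FPKM + 1) scale with bars of 1 SE, grouped by role. Red genes were higher and blue genes lower in 5637 at an adjusted p below 0.05, and grey genes were not called. WNT9A, FZD3, ROR2, RNF43, GPC4, SFRP1 and VANGL2 passed the filter through 5637 only and so had to come out higher there. Of these, GPC4 and SFRP1 lie farthest to the right of all genes shown. DKK3 and DKK1 lie farthest to the left.

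Of 13 genes of the cytoplasmic relay and destruction complex, 12 were tested, 3 were higher and 6 lower in 5637. The share called was 75%, against 68.9% of all genes tested and 65.2% of those that, like these 12, reached 1 FPKM in both lines. DVL2, which relays the signal from Frizzled, had a coefficient of -1.03, the scaffold AXIN1 -0.81 and the tankyrase TNKS2 -0.48. The kinases GSK3A and GSK3B had coefficients of 0.59 and 0.29 and DVL1 0.28. GSK3A and DVL1 overlap exons of other genes of their strand. CTNNB1, which encodes beta-catenin, was not called (coefficient -0.17, SE 0.075, limma adjusted p = 0.0800).

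Of 15 nuclear genes, 14 were tested, 7 were higher and 4 lower in 5637. The share called was 78.6%, against 68.9% of all genes tested and 65.2% of those that, like these 14, reached 1 FPKM in both lines. BCL9, the adaptor that ties Pygopus to beta-catenin, was at 7.66 and 7.13 FPKM in treated and untreated 5637 and at 3.07 and 2.87 FPKM in treated and untreated T24 (coefficient 1.08, SE 0.095, limma adjusted p = 0.000164). TCF7L1, a TCF factor that mainly represses, had a coefficient of 2.31, and the corepressors TLE3 and TLE4 1.51 and -1.28. The histone acetyltransferases CREBBP and EP300 had coefficients of -0.83 and -0.73. TLE4 and EP300 share exons with other genes.

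In the planar polarity list, 10 of 12 were tested, and 4 were higher, VANGL2 through the filter, and 2 lower in 5637. The share called was 60%, against 68.9% of all genes tested. VANGL2, a core polarity membrane protein, was at 6.26 and 7.08 FPKM in treated and untreated 5637 and at 0.00626 and 0.00688 FPKM in treated and untreated T24. DAAM1 and CELSR1 were called higher (coefficients 1.33 and 0.89), and CELSR2 and PRICKLE3 lower (-1.81 and -0.31).

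Common target genes were mostly near the floor of the data. AXIN2, a feedback target of beta-catenin, was at 0.0286 and 0.0667 FPKM in treated and untreated 5637 and at 0.0392 and 0.0222 FPKM in treated and untreated T24. Of 9 targets, 3 passed the filter, and MYC and CCND1 were called higher in 5637 (coefficients 0.88 and 0.64). The share called was 66.7%, near the 68.9% of all genes tested.

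The treatment effect over both lines was estimated in the same fit with cell line as a term. limma called 0 of the 62 pathway genes and 0 of all 12893 genes (0%). At an unadjusted limma p below 0.05 were 9 of the 62 and 1227 of all genes. Of the 1227, 719 were higher and 508 lower with protodioscin. Of the 9 pathway genes, SSBP3, FZD7 and DVL2 had positive coefficients, of 0.30, 0.25 and 0.23. MYC, CCND1, TNFRSF19, DKK1, DKK3 and DVL1 had negative ones. The 3 of 9 target genes that passed the filter had lower values in the treated library of both lines. Over all genes compared, 38.5% were lower with protodioscin in 5637 and 44.0% in T24. With 3 genes, nothing is read from this count. The other 6 target genes were all below 1 FPKM. Of them, SP5 had higher values in the treated library of both lines, with log2 differences of 0.34 in 5637 and 0.12 in T24. AXIN2 differed by -0.05 in 5637 and 0.02 in T24. MYC was at 57.0 and 67.2 FPKM in treated and untreated 5637 and at 25.5 and 42.8 FPKM in treated and untreated T24 (coefficient -0.48, limma adjusted p = 0.482). CCND1, the cyclin D1 gene, had a coefficient of -0.26, and TNFRSF19, chosen after its values were seen, -0.39 (limma adjusted p = 0.505 and 0.495). DKK1 had a coefficient of -0.49 (limma adjusted p = 0.482), and its log2 differences were -0.19 in 5637 and -0.78 in T24.

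Among the 3 genes nearest to WNT7A by Euclidean distance between centred log2(FPKM + 1) profiles over the 4 libraries were LAMA3 and ANO1, at distances of 0.14 and 0.23. LAMA3, a laminin chain of epithelial basement membranes, was at 303 and 336 FPKM in treated and untreated 5637 and at 1.60 and 1.501 FPKM in treated and untreated T24. ANO1 is a chloride channel. Nearest to PYGO1 were ZNF181, SNORA11F and ACY1, at 0.22, 0.23 and 0.23. ZNF181, a zinc finger gene, was at 2.26 and 1.16 FPKM in treated and untreated 5637 and at 1.62 and 1.73 FPKM in treated and untreated T24. ACY1 shares exons with other genes, and SNORA11F is a small nucleolar RNA gene. These distances describe 4 libraries and carry no test.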

How the data were processed

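The authors deposited gene-level FPKM for 4 libraries in 1 table, with no columns left unmapped. Per the submitters' processing notes, the tools were Trimmomatic, HISAT2 and StringTie and the build was GRCh38. Their versions and settings and the annotation release were not given in the sources used here. Per the labels' protocols, libraries were made with the TruSeq RNA v2 kit and read as 150-base pairs.

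Members and lists were chosen with earlier results of these data known. Values were analysed as log2(FPKM + 1), a scale that understates changes of low genes (pandas 2.3.3, Python 3.11.15). Symbols, overlaps and lengths came from a name table and GENCODE 29 (bedtools 2.31.1). limma 3.58.1 in R 4.3.3 fitted cell line and treatment with a trended prior variance to genes that reached 1 FPKM in 2 or more libraries, with 1 residual degree of freedom. The line effect of this fit was tested on simulated data, and the treatment effect was not. On the log2 scale, 37.2% of simulated line differences of 0.5 and 96.2% of those of 1 were recovered. False calls, counted among the genes left unchanged, numbered at most 27 in a draw of 12893 genes. The simulation changed far fewer genes by line than the 8886 that the fit called in these data. Its noise came from the fitted prior variance, so these rates are not known to hold for these data. Read numbers were estimated by taking the commonest low product of FPKM and transcript length as 1 read, which was not tested. They cover counting error only. Each member is named, along with up to 3 called genes per direction of each role list, those past the size rule, and the 3 nearest profiles, of which 1 is not reported here.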

Additional observations from a re-analysis of the deposited data

Results flagged for a closer look

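In 4 of the 10 genes the treated library was higher than the untreated one in 1 line and lower in the other. The response in 5637 minus the response in T24, on the log2(FPKM + 1) scale, was 1.09 for PYGO1, 0.39 for WNT7B, 0.20 for WNT5B and -0.11 for LRP6, whose signs were alike with median-ratio scaling. With 1 library per group these differences were not tested, the doses differed between the lines, and 40.8% of 12893 genes had opposite signs as well. PYGO1 was chosen for its opposite signs. The PYGO1 value was 1.42 with a pseudocount of 0.1 and 0.54 with a pseudocount of 5, settings chosen for this value after the data had been seen, as was 1.06 with median-ratio scaling and 1.26 with TPM scaling.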

How the results depend on the processing

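The number of members past the size rule in 5637 was 2 with a pseudocount of 0.1 (WNT10A and PYGO1) and 1 with TPM scaling (WNT10A, at -1.004), against 0 as reported. Both settings lower the pseudocount relative to the values. In T24 it was 0 under all 4 alternatives. The LRP6 difference in T24 was -0.017 with median-ratio scaling, and no other member changed sign. The treatment effect called 2 genes over all genes with a pseudocount of 0.1 and 2 with exon-sharing genes left out (an alternative added after seeing the data), and the cause was not tested. It called 0 in the other alternatives, also without cell line as a term (no replicate block), and 0 of the wider pathway genes in all of them. The line effect called 6437 to 8916 genes over its alternatives and 37 to 46 of the wider pathway genes, within 1.5 times the reported counts. For single pathway genes, 291 of the values kept their call and 4 lost it with the same direction. The 4 were FZD1, GSK3B and PRICKLE3 without a filter, and GSK3B with TPM scaling. The 291 include all values of the 7 genes that passed the filter through 5637 only and so had to come out higher. The cell line term paired the treated and untreated library of each line, and the labels give no replicate numbers for any other pairing. Leaving out a library would leave the fit no residual degree of freedom, so it was not run. Depth was known only relative to untreated T24, and levels near 0.02 FPKM rest on a few reads.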
